A study of Homo sapiens with 4 samples.

Results

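The SERPINB cluster at 18q21 is a run of 10 protease-inhibitor genes of chromosome 18, and it was described here by its contacts in Hi-C maps of IMR90, a widely used fibroblast line from human lung. In Hi-C, fixed chromatin is cut, neighbouring cut ends are joined inside the nucleus and the joints are sequenced, so that each pair of genomic bins gets a contact value. The bins were chosen by position alone: those of chromosome 18 that overlap 61.0 to 61.7 Mb (hg19), with 10 further bins on each side as flanks. This gave 5 cluster bins and 20 flank bins of about 200 kb, of 13567 bins that passed the filter on listed pairs and 14310 bins on the 23 chromosomes used. All 25 bins passed the filter.

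The cells carried ER:HRAS G12V, an oncogenic RAS fusion brought in on the vector pLNCX2 and activated by 4OHT. OIS (oncogene-induced senescence) cells had been kept in 100 nM 4OHT for 6 days, while growing cells (Grow) had none. Grow-shA1 and OIS-shA1 cells also carried pMSCV miR shHMGA1, a hairpin RNA against HMGA1, an architectural protein of chromatin that binds stretches rich in A and T, and 2 samples of each were labelled. The files pool the samples of a condition into 1 map, and the Grow and OIS maps are earlier ones of the same laboratory with no sample in the series, so there were no replicate maps, no spread between replicates and no test between conditions. In every comparison of a shA1 map with a map lacking the hairpin, the effect of shA1 and the difference between data sets cannot be told apart. The maps hold no expression values, so neither the level of HMGA1 nor the fibroblast markers of these cells could be checked in them.

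Serpins are proteins that trap a protease in a suicide complex, and clade B serpins, which lack a classical signal peptide, act mostly inside cells and are most abundant in squamous epithelium and in white blood cells. Several members of this cluster are markers of keratinocytes rather than of fibroblasts. On the scale of whole chromosomes, active chromatin (compartment A) tends to touch other active chromatin and inactive chromatin (compartment B) to touch other inactive chromatin. In RAS-induced senescence of fibroblasts, inactive chromatin can gather into dense foci, and this makes the side on which a gene cluster lies a natural question for Hi-C.

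In order along the chromosome, cluster bin 1 (chr18:60799929-61000634) reached into the region by 634 bases and held no member, but parts of BCL2, an inhibitor of apoptosis, and KDSR, an enzyme of sphingolipid synthesis. Bin 2 (chr18:61000635-61200161) held KDSR, VPS4B, an ATPase of membrane scission, and SERPINB5 (chr18:61144191-61172318), known as maspin, a serpin without known inhibitory activity. Bin 3 (chr18:61200162-61398226) held 5 members and no other protein-coding gene. These were SERPINB12 (chr18:61209602-61236562), an inhibitor of trypsin-like proteases, SERPINB13 (chr18:61254223-61271873), an inhibitor of lysosomal cathepsins, SERPINB4 (chr18:61304493-61311490) and SERPINB3 (chr18:61322431-61329127), the squamous cell carcinoma antigens, and SERPINB11 (chr18:61314813-61393666), whose human protein is thought not to inhibit proteases. Bin 4 (chr18:61398227-61600321) held SERPINB7 (chr18:61420169-61472610), a serpin of the epidermis, SERPINB2 (chr18:61538926-61571122), an inhibitor of the plasminogen activators, and the start of SERPINB10 (chr18:61575192-61603345), a serpin of blood cells. Bin 5 (chr18:61600322-61804126) held the end of SERPINB10, HMSD and SERPINB8 (chr18:61637263-61687013), an inhibitor of furin. Genes that share a bin have 1 value between them, so the 10 members were measured by 4 values, and SERPINB5 and SERPINB8 were the only members alone in a bin by their start of transcription.

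Bin edges lie at HindIII sites, where the chromatin was cut, and the edges inside the cluster are shown because the results turn on which member lies on which side of them. Capitals mark the HindIII site in each 30 bases of the GRCh37 plus strand.

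Edge between bins 1 and 2 (chr18:61000622-61000651): atggaatttttaAAGCTTtatcctgatggt
Edge between bins 2 and 3 (chr18:61200149-61200178): aacaggtaatagAAGCTTtttattatgtaa
Edge between bins 3 and 4 (chr18:61398214-61398243): ggggttttagatAAGCTTgaaagacaatgt
Edge between bins 4 and 5 (chr18:61600309-61600338): tttatgaagaaaAAGCTTcacatttttcac

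The first edge lay in an intron of KDSR and the next 2 lay outside protein-coding genes. The edge between bins 4 and 5 lay in a coding exon of SERPINB10, so that the gene was split, with SERPINB7 and SERPINB2 to its left and SERPINB8 to its right.

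The sequence before the start of transcription is shown for SERPINB5 of bin 2, SERPINB2 of bin 4 and SERPINB8 of bin 5. These bins lie on either side of the edge inside SERPINB10. The sequences are from RefSeq (GRCh38.p14 table) and were placed here by an exact match on GRCh37. Capitals mark runs of 8 or more letters that are all A or T, and the SERPINB8 sequence stops where an annotated exon begins. The RefSeq start of SERPINB2 lies inside the longer gene model whose coordinates are given for it here.

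SERPINB5, plus strand (chr18:61143941-61144190): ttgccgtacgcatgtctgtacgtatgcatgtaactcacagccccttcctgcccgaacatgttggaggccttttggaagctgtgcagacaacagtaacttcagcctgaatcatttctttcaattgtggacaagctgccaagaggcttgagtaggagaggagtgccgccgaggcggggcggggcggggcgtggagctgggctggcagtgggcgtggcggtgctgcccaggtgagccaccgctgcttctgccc
SERPINB2, plus strand (chr18:61554689-61554938): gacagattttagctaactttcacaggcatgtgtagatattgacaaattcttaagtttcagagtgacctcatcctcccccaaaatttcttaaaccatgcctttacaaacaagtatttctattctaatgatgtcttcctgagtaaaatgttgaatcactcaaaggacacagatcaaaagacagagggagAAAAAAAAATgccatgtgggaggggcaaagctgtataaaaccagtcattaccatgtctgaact
SERPINB8, plus strand (chr18:61637065-61637262): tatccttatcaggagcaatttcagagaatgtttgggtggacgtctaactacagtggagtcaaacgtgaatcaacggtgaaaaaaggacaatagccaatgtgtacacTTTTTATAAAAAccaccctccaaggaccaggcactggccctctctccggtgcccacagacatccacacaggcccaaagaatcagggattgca

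A + T made up 40% of the 250 bases before the RefSeq start of SERPINB5, 62.8% for SERPINB2 and 50.8% for SERPINB8, against a median of 42.0% over all 35116 promoters of the table. For SERPINB8, only the 198 bases shown lie before an annotated exon. Of the 10 members, 8 matched the table, with 11 promoters between them, and 8 of these 11 held such a run, as did 35.2% of all promoters. The promoter of SERPINB13, counted among those with a run, began inside an annotated exon. SERPINB10 and SERPINB11 had no entry. SERPINB7, also in bin 4, had 3 promoters that are not shown, with A + T of 48%, 63.2% and 74%. The 250 bases before SERPINB3 and SERPINB4 were identical at 247 positions. Reads of such near-identical copies are hard to place, and both genes lay in bin 3. Over whole bins, GC content was 42.7%, 41.2%, 38.2%, 38.0% and 39.3% in bins 1 to 5, and from 34.0% to 38.4% in the right flank, so that bins 3 and 4, which differed in compartment in both Grow maps, had nearly the same GC content.

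The score of a pair of bins is the deposited value, set against the average for pairs as far apart, so that a score above 0 marks more contact than usual for that distance. It behaves as a logarithm whose base is not stated, and differences are given in score units. As the measure of depth, the share of possible distal pairs (over 2 Mb apart) that a map lists was 99.7% for the cluster bins in Grow, 98.5% in Grow-shA1, 98.9% in OIS and 98.4% in OIS-shA1. Single cluster bins ranged from 98.0% to 100%, and right flank bins from 81.7% to 96.9%. Distal scores on chromosome 18 spread more in OIS (SD 1.12) than in Grow (0.903), Grow-shA1 (0.902) or OIS-shA1 (1.03). The maps give no reads per pair, and the error of a single score is therefore not known.

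The members did not share a compartment in growing cells. The compartment score, which is positive in A and negative in B and is in units of its SD along chromosome 18, was 0.441 in Grow, 0.388 in Grow-shA1, 1.22 in OIS and 1.24 in OIS-shA1 for bin 2 with SERPINB5. Bin 4 with SERPINB7, SERPINB2 and SERPINB10 scored 0.712 in Grow, 0.661 in Grow-shA1, 1.26 in OIS and 1.34 in OIS-shA1. Both bins were A in all 4 maps, with higher scores in both OIS maps than in both Grow maps. Bin 3, which holds SERPINB12, SERPINB13, SERPINB4, SERPINB11 and SERPINB3, scored -0.541 in Grow, -0.629 in Grow-shA1, 0.417 in OIS and 0.392 in OIS-shA1. It was B in both Grow maps and A in both OIS maps, and was the only cluster bin whose score changed sign. Bin 5 with SERPINB8 scored -0.875 in Grow, -0.827 in Grow-shA1, -0.893 in OIS and -0.757 in OIS-shA1 and was B throughout. Bin 1 at BCL2 and KDSR scored 0.521 in Grow, 0.331 in Grow-shA1, 1.10 in OIS and 0.993 in OIS-shA1.

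**Figure D1:**
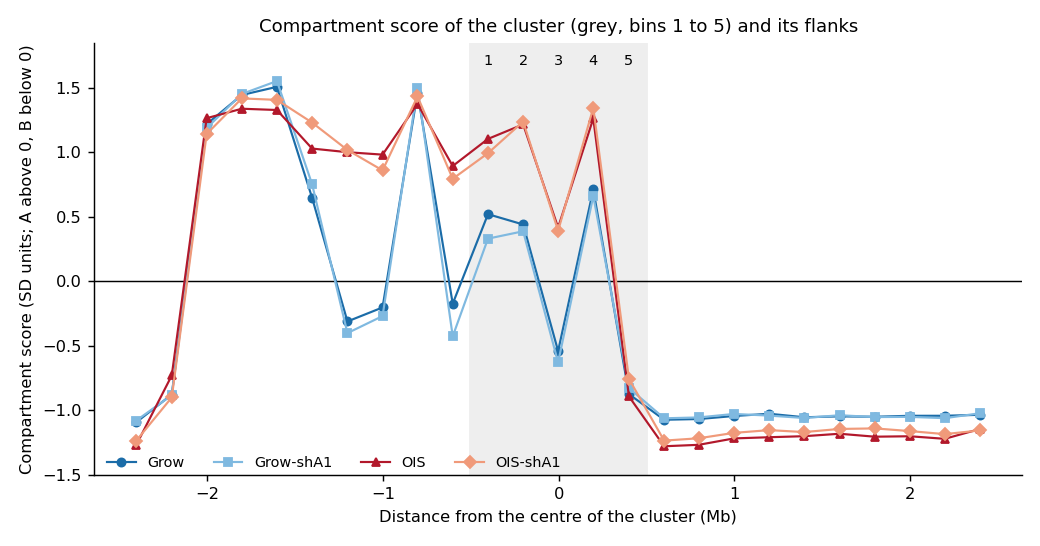
Compartment score (SD units, y axis) of the 25 bins against the distance from the centre of the cluster in Mb (x axis), with 1 line per map and the cluster bins 1 to 5 shaded. Bin 3 lay below 0 in Grow and Grow-shA1 and above 0 in OIS and OIS-shA1, while bin 5 and the 10 bins to its right lay below 0 in every map.

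Between OIS and Grow the score of bin 3 differed by 0.958 and between OIS-shA1 and Grow-shA1 by 1.02. These differences were at or above 98.4% and 98.0% of all kept bins. Bins 1, 2 and 4 differed by 0.583, 0.776 and 0.551 without shA1, and by 0.662, 0.850 and 0.683 with it, while bin 5 differed by -0.0179 and 0.0701. With the hairpin, all 5 cluster bins were within 0.2 of the map without it, in OIS and in Grow, with differences between -0.111 and 0.136 in OIS and between -0.190 and 0.0476 in Grow. A change of sign in 1 of 5 cluster bins compares with 8.9% of all kept bins between OIS and Grow and 7.9% between OIS-shA1 and Grow-shA1. None of the 5 changed sign between OIS-shA1 and OIS or between Grow-shA1 and Grow, where 4.61% and 3.24% of all kept bins did. On chromosome 18, 29 of 375 kept bins changed sign between OIS and Grow, 27 of them from B to A.

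Bin 3 was not the only bin of the window to cross. In the left flank, which holds CDH20, RNF152, PIGN, RELCH, TNFRSF11A, ZCCHC2, PHLPP1 and BCL2, the fourth bin out, at TNFRSF11A (the receptor for RANK ligand) and ZCCHC2, scored -0.311 in Grow, -0.401 in Grow-shA1, 1.00 in OIS and 1.02 in OIS-shA1. The third, at ZCCHC2 and PHLPP1, scored -0.203 in Grow, -0.270 in Grow-shA1, 0.982 in OIS and 0.860 in OIS-shA1, and the bin next to the cluster, at PHLPP1 and BCL2, -0.173 in Grow, -0.426 in Grow-shA1, 0.894 in OIS and 0.795 in OIS-shA1. The second bin out, within PHLPP1, was A in all maps, at 1.46 in Grow, 1.5 in Grow-shA1, 1.38 in OIS and 1.43 in OIS-shA1. Of the 8 bins from the bin at TNFRSF11A and ZCCHC2 to cluster bin 4, 4 were thus A and 4 B in Grow and in Grow-shA1, and all 8 were A in OIS and OIS-shA1. On the other side, the right flank is a gene desert with CDH7 as its one protein-coding gene, and its 10 bins averaged -1.05 in Grow, -1.05 in Grow-shA1, -1.21 in OIS and -1.17 in OIS-shA1.

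Distal contact with B chromatin was lower in OIS than in Grow by 0.2 or more for the bins of SERPINB5, of the 5 members from SERPINB12 to SERPINB11, and of SERPINB7, SERPINB2 and SERPINB10, while the bin of SERPINB8 differed far less. Growth state was compared within a data set, Grow with OIS and Grow-shA1 with OIS-shA1. Averaged over the 5 cluster bins, the mean score with distal bins that are B in Grow was 0.505 in Grow, 0.497 in Grow-shA1, 0.0882 in OIS and 0.111 in OIS-shA1, over 928 pairs. With this class of partners fixed from the Grow map, the difference between OIS and Grow was -0.416 ± 0.252 (SD over 5 cluster bins, which are not replicates) and between OIS-shA1 and Grow-shA1 -0.385 ± 0.235. The interaction is the second minus the first, which removes any offset that is the same in both growth states, and it was 0.0311 ± 0.0626. Lower contact with B bins was not particular to the cluster. Between OIS and Grow the left flank differed by -0.246 ± 0.237 (SD over its 10 bins, 8 of them lower). The right flank differed by -0.240 ± 0.0980, with 10 of 10 lower.

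By bin, the score with B partners for SERPINB5 (bin 2) was 0.260 in Grow, 0.211 in Grow-shA1, -0.373 in OIS and -0.308 in OIS-shA1. That of SERPINB7, SERPINB2 and SERPINB10 (bin 4) was 0.274 in Grow, 0.293 in Grow-shA1, -0.372 in OIS and -0.344 in OIS-shA1. Both bins thus had more contact with B than usual for the distance in both Grow maps and less in both OIS maps. SERPINB12, SERPINB13, SERPINB4, SERPINB11 and SERPINB3 (bin 3) had 0.621 in Grow, 0.631 in Grow-shA1, 0.250 in OIS and 0.212 in OIS-shA1, so that this bin was lower in both OIS maps but still above 0. SERPINB8 (bin 5) had 1.39 in Grow, 1.23 in Grow-shA1, 1.36 in OIS and 1.22 in OIS-shA1 and stayed far above the other members. Bin 1 had -0.0177 in Grow, 0.114 in Grow-shA1, -0.423 in OIS and -0.221 in OIS-shA1.

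From Grow to OIS, contact with B bins in bin 2 fell by 0.633, in bin 4 it fell by 0.646, in bin 1 it fell by 0.405 and in bin 3 it fell by 0.370, whereas bin 5 differed by -0.0276. A bin was called where its difference reached 0.2 score units, a rule of size with no test. By this rule 4 of the 5 cluster bins fell, against 29.1% of all bins with enough pairs. Differences as low as that of bin 4 were found in 0.641% of all bins, and as low as that of bin 2 in 0.745%. Within the shA1 maps, bins 1 to 4 also fell by 0.2 or more from Grow-shA1 to OIS-shA1, against 25.3% of all bins, with differences of -0.335 in bin 1, -0.519 in bin 2, -0.419 in bin 3, -0.637 in bin 4 and -0.0167 in bin 5.

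**Figure D2:**
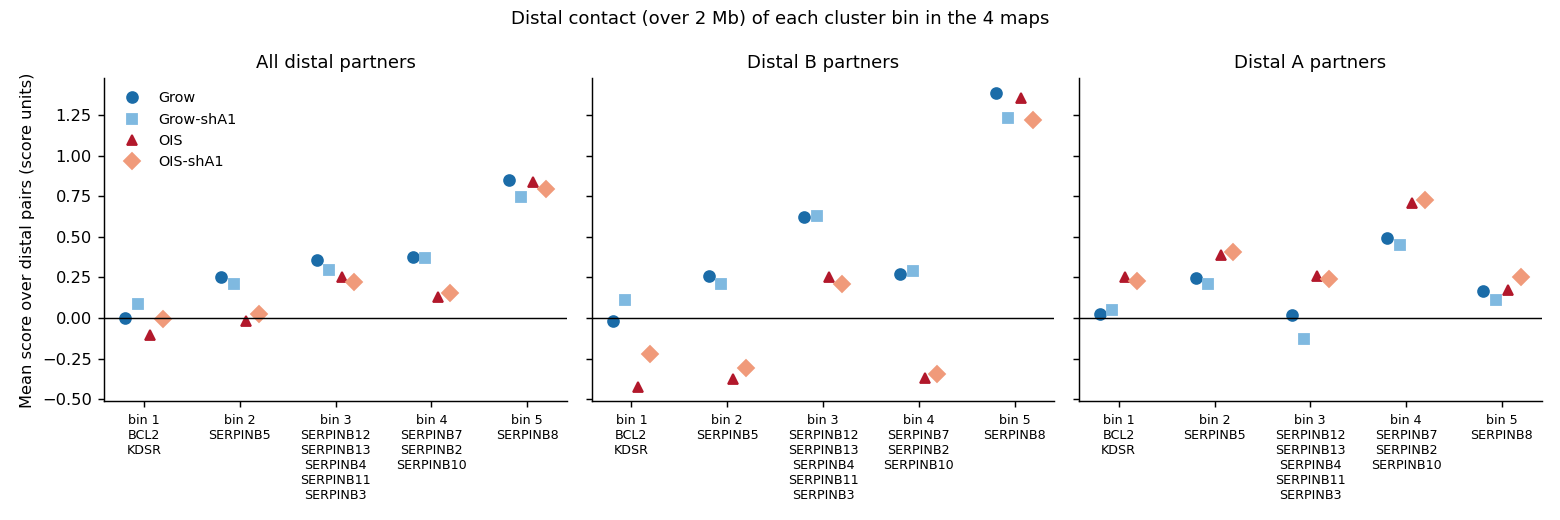
Mean score over distal pairs (y axis, score units) of each cluster bin (x axis, with its genes) in the 4 maps, with all distal partners, with B partners and with A partners. With B partners, bins 1 to 4 were lower in OIS and OIS-shA1 than in Grow and Grow-shA1, and bin 5 with SERPINB8 was above 1.2 in all 4 maps.

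Distal contact with A chromatin was higher in OIS than in Grow in most of these bins. With partners that are A in Grow, bin 4 at SERPINB2 scored 0.491 in Grow, 0.453 in Grow-shA1, 0.708 in OIS and 0.726 in OIS-shA1. Bin 3, at SERPINB3 and its neighbours, scored 0.0209 in Grow, -0.127 in Grow-shA1, 0.257 in OIS and 0.238 in OIS-shA1, and bin 2 at SERPINB5 0.250 in Grow, 0.207 in Grow-shA1, 0.391 in OIS and 0.406 in OIS-shA1. The SERPINB8 bin scored 0.168 in Grow, 0.114 in Grow-shA1, 0.171 in OIS and 0.252 in OIS-shA1. Both OIS maps were thus above both Grow maps in bins 2, 3 and 4, and bin 5 differed by 0.00254 between OIS and Grow. From Grow to OIS, 3 of the 5 bins rose by 0.2 or more (bin 1 by 0.232, bin 3 by 0.236 and bin 4 by 0.218), against 4.61% of all bins, and all 3 lay close to the call size, with values over the alternatives down to 0.169 in bin 3 and 0.137 in bin 4. From Grow-shA1 to OIS-shA1, 2 of the 5 did (bin 3 by 0.365 and bin 4 by 0.273), against 7.37%, and with the median bin 4 was at 0.162. Over the 5 bins the means were 0.191 in Grow, 0.140 in Grow-shA1, 0.357 in OIS and 0.370 in OIS-shA1.

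Averaged over all distal partners, A and B together, the differences were smaller. The mean distal score of the cluster was 0.368 in Grow, 0.340 in Grow-shA1, 0.220 in OIS and 0.238 in OIS-shA1, over 1708 pairs. All 5 cluster bins were lower in OIS than in Grow, with a mean difference of -0.148 ± 0.108. Falls of 0.2 or more were found in 2 of the 5 bins, -0.273 in bin 2 and -0.243 in bin 4, against 13.2% of all bins. With the median over pairs bin 4 was at -0.121 and no longer called. Between Grow-shA1 and OIS-shA1, 1 of the 5 fell so far, bin 4 at -0.212, against 10.5%. The median over all kept bins was -0.0594 without shA1 and -0.0424 with it.

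Between a shA1 map and the map without the hairpin in the same growth state, no bin that holds a member differed by 0.2 in mean distal contact with A or B chromatin. Between OIS-shA1 and OIS, contact with B bins differed by 0.202 in bin 1, 0.0641 in bin 2, -0.0380 in bin 3, 0.0280 in bin 4 and -0.141 in bin 5. Only bin 1, which holds no member, reached 0.2, against 14.9% of all bins in either direction. Over the alternatives bin 1 ran from 0.137 to 0.273, and with the median over pairs the SERPINB8 bin was called, at -0.294. For A partners none of the 5 did, with differences from -0.0260 to 0.0808, against 11.3%. In Grow the hairpin map differed by -0.152 (bin 5) to 0.131 (bin 1) with B partners and by -0.148 (bin 3) to 0.0284 (bin 1) with A partners, and none of the 5 reached 0.2, against 6.33% and 3.17% of all bins.

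The largest differences near the members lay at their right side, where the cluster meets the gene desert. Pairs of a cluster bin and a right flank bin at 2 Mb or less scored -0.692 in Grow, -0.412 in Grow-shA1, -2.03 in OIS and -1.37 in OIS-shA1 on average, over 39 pairs. For SERPINB7, SERPINB2 and SERPINB10 (bin 4) the mean was -1.18 in Grow, -0.952 in Grow-shA1, -3.00 in OIS and -2.41 in OIS-shA1. SERPINB5 (bin 2) had -0.998 in Grow, -0.647 in Grow-shA1, -2.61 in OIS and -1.95 in OIS-shA1, and the SERPINB3 group (bin 3) -0.661 in Grow, -0.292 in Grow-shA1, -1.86 in OIS and -1.30 in OIS-shA1. All 3 were below 0 in both Grow maps and further below 0 in both OIS maps. SERPINB8 (bin 5), which borders the desert, had 0.841 in Grow, 1.00 in Grow-shA1, 0.251 in OIS and 0.756 in OIS-shA1 and stayed above 0. Every one of these pairs was lower in OIS than in Grow, from 6 of 6 in bin 1 to 10 of 10 in bin 5, and the same held for OIS-shA1 against Grow-shA1. The right flank bins were listed less fully than the cluster bins in distal pairs. Here, at 2 Mb or less, no pair was left out for lack of a value in a map. Any part of sequencing depth in these values was not tested.

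At the shortest distance, the pair of bin 4 and the first right flank bin, about 0.4 Mb apart, scored -2.05 in Grow, -1.81 in Grow-shA1, -3.79 in OIS and -3.59 in OIS-shA1. The neighbouring pair of bin 5 and that flank bin scored 0.0722 in Grow, 0.169 in Grow-shA1, -0.576 in OIS and -0.239 in OIS-shA1. SERPINB2 and SERPINB8 start in adjacent bins, and the pair of those bins scored 0.225 in Grow, 0.370 in Grow-shA1, -0.0671 in OIS and 0.125 in OIS-shA1. The contrast across the edge in SERPINB10 was thus present in both Grow maps and larger in both OIS maps.

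**Figure D3:**
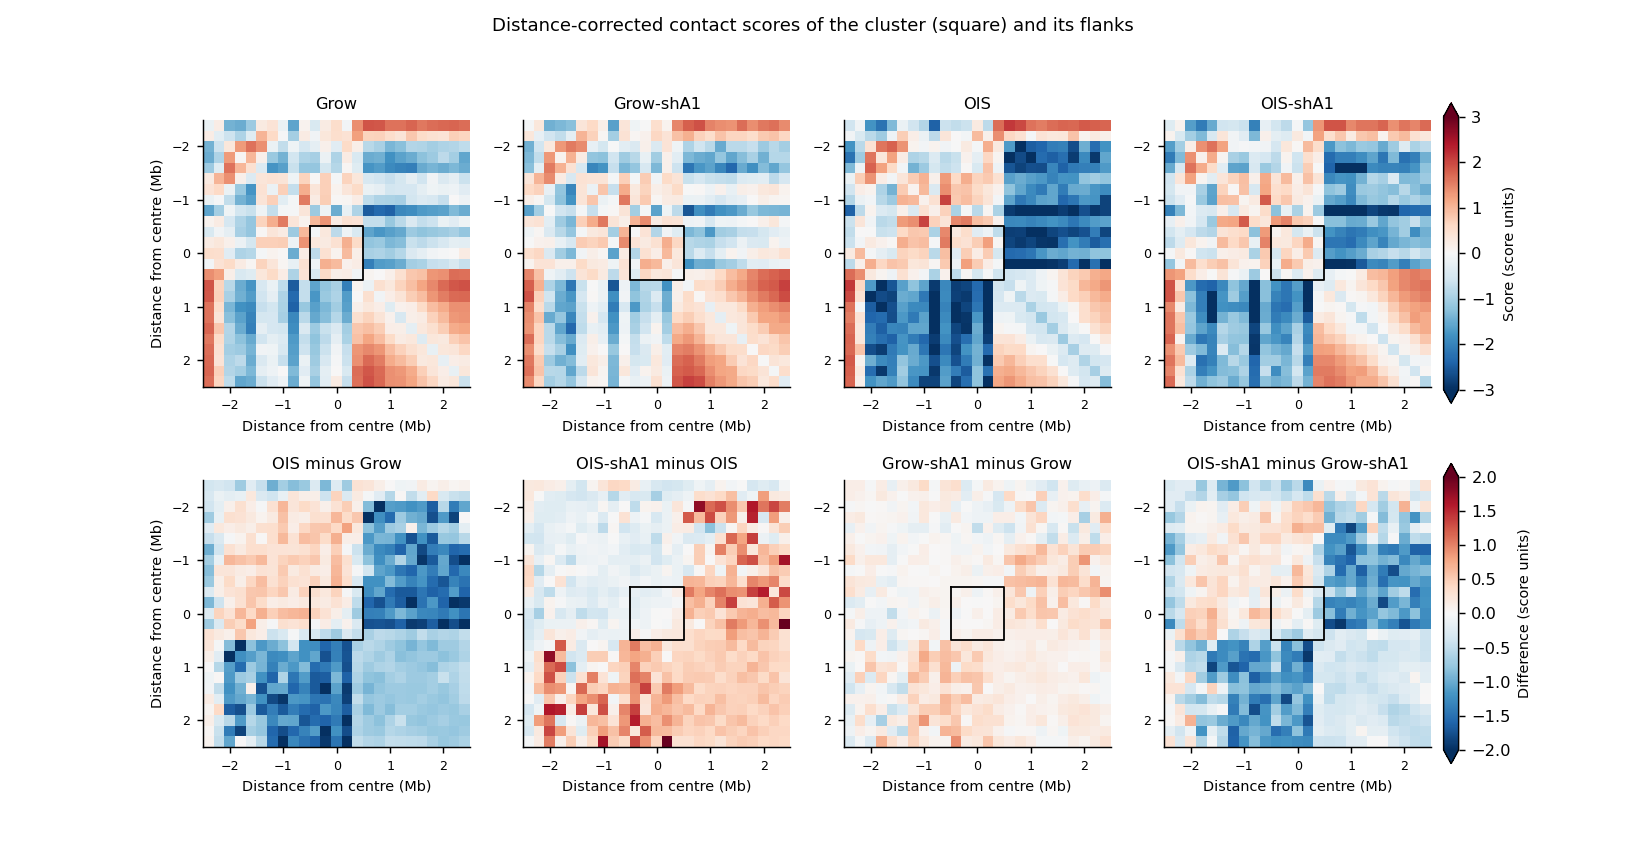
Contact scores of the 25 bins with each other in the 4 maps (top, score units) and the 4 differences (bottom), both axes giving the distance from the centre of the cluster in Mb, with the cluster bins in the square. The block between the bins left of SERPINB8 and the gene desert to the right was lower in OIS than in Grow and lower in OIS-shA1 than in Grow-shA1. For bins 1 to 4, the means of pairs at 2 Mb or less were -1.07 in Grow, -0.764 in Grow-shA1, -2.61 in OIS and -1.93 in OIS-shA1.

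The cluster and its right flank differed by -1.33 ± 0.474 between OIS and Grow (SD over 5 bins) and by -0.958 ± 0.476 between OIS-shA1 and Grow-shA1. OIS-shA1 was above OIS in each of the 5 bins, by 0.655 ± 0.178, from 0.505 in bin 5 to 0.957 in bin 1. Grow-shA1 was above Grow in each of the 5 as well, by 0.280 ± 0.0858. The interaction was 0.375 ± 0.176 and above 0 in 5 of 5 bins, from 0.189 in bin 3 to 0.666 in bin 1. Only 6 of the 39 pairs had an interaction below 0. These values were not particular to the cluster: the 45 local pairs within the right flank itself scored 0.834 in Grow, 0.929 in Grow-shA1, 0.136 in OIS and 0.612 in OIS-shA1, with a difference of -0.698 ± 0.107 between OIS and Grow (SD over pairs) and an interaction of 0.381 ± 0.116. Between OIS and Grow, the pairs of bins 1 to 4 with the right flank differed by -1.54 ± 0.339 (SD over 29 pairs), more than the pairs within it, while their interaction of 0.372 was of the same size. Lower contact with the right flank was also seen outside the cluster. The left flank bin next to the cluster differed by -0.866 to -1.34 from Grow to OIS with right flank bins 1 to 5, all at 2 Mb or less.

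Towards the left flank the differences ran the other way and were smaller. Pairs of cluster and left flank bins at 2 Mb or less scored 0.015 in Grow, 0.0121 in Grow-shA1, 0.263 in OIS and 0.102 in OIS-shA1. Bin 3 with SERPINB12 to SERPINB3 showed the largest difference, with -0.411 in Grow, -0.503 in Grow-shA1, 0.153 in OIS and -0.0895 in OIS-shA1, which is 0.564 between OIS and Grow, and all of its 8 pairs were higher. Bin 4 scored 0.231 in Grow, 0.246 in Grow-shA1, 0.545 in OIS and 0.490 in OIS-shA1, and bin 5 at SERPINB8 0.123 in Grow, 0.162 in Grow-shA1, -0.0630 in OIS and -0.181 in OIS-shA1, where it was lower in OIS. OIS-shA1 was below OIS in each of the 5 bins, with a mean difference of -0.161 ± 0.0879, and the interaction was -0.159 ± 0.0808. The means of bins 1, 2, 3 and 4 with the left flank were higher in OIS than in Grow, while their means with the right flank were lower.

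Within the cluster, the mean of the 10 pairs of bins was 0.239 in Grow, 0.290 in Grow-shA1, 0.147 in OIS and 0.127 in OIS-shA1, and the difference of -0.0928 between OIS and Grow was smaller than its SD over pairs of 0.371. Single pairs differed in opposite directions. Bins 2 and 4, which hold SERPINB5 and SERPINB2, scored 1.07 in Grow, 1.09 in Grow-shA1, 1.23 in OIS and 1.12 in OIS-shA1 with each other, the highest of the 10 pairs in every map. Contact of bin 5 with bin 3 was 0.180 in Grow, 0.328 in Grow-shA1, -0.533 in OIS and -0.403 in OIS-shA1, and with bin 2 0.570 in Grow, 0.627 in Grow-shA1, 0.0664 in OIS and 0.0493 in OIS-shA1. All 4 pairs of the SERPINB8 bin were lower in OIS than in Grow, by differences of -0.292 to -0.712, whereas 4 of the 6 pairs among bins 1 to 4 were higher. Bins 1 and 3 scored -0.780 in Grow, -0.881 in Grow-shA1, -0.338 in OIS and -0.520 in OIS-shA1, a difference of 0.442.

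Contact across a bin edge was summarised as the mean score of the pairs between the 5 bins to its left and the 5 bins to its right, so that a low value marks a boundary. The edge between SERPINB2 and SERPINB8, inside SERPINB10, scored -0.980 in Grow, -0.654 in Grow-shA1, -2.18 in OIS and -1.68 in OIS-shA1. Next to it, the edge between bin 5 and the desert scored -0.949 in Grow, -0.687 in Grow-shA1, -2.29 in OIS and -1.64 in OIS-shA1. These were the 2 lowest of the 24 edges of the window in every map. Over 12204 edges of the genome, the edge inside SERPINB10 lay among the lowest 10.0% in Grow, 21.9% in Grow-shA1, 2.11% in OIS and 4.83% in OIS-shA1. It differed by -1.20 between OIS and Grow, a difference that 0.647% of edges reached or passed in that direction, and by -1.03 between OIS-shA1 and Grow-shA1 (0.688%). OIS-shA1 was 0.499 above OIS, at or above 97.3% of edges, and Grow-shA1 0.326 above Grow, at or above 99.98% of edges. The interaction at this edge, 0.173, was at or above that of 71.6% of edges. At the edge between bin 5 and the desert it was 0.384, at or above 89.3% of edges. At the left end of the cluster, the edge before bin 1 was above 0 in all maps, at 0.187 in Grow, 0.208 in Grow-shA1, 0.444 in OIS and 0.275 in OIS-shA1.

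**Figure D4:**
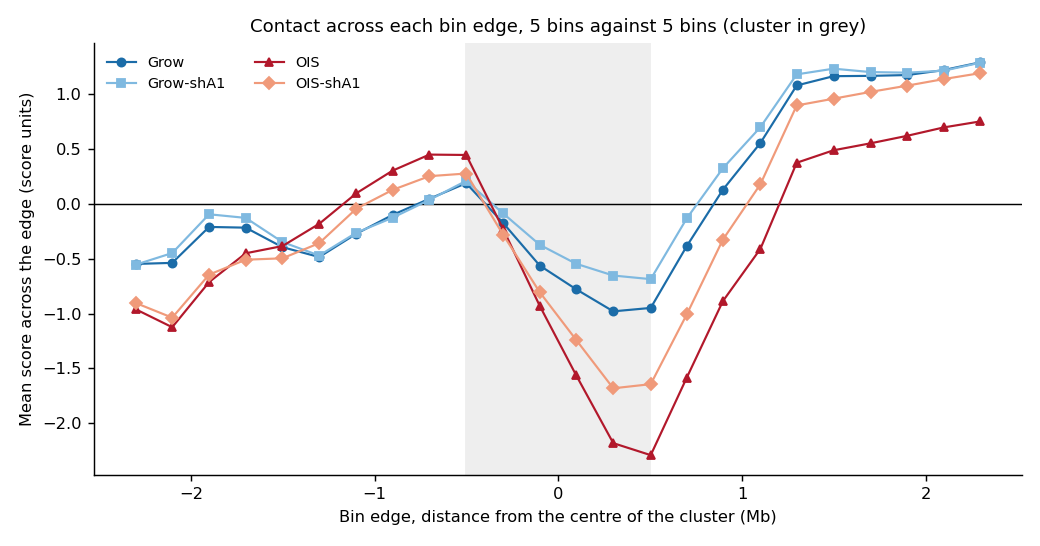
Mean score across each bin edge (y axis, score units, 5 bins against 5 bins) by distance of the edge from the centre of the cluster in Mb (x axis), with 1 line per map and the cluster shaded. The lowest point of each line lay at the right end of the cluster, at -0.980 in Grow and -2.29 in OIS.

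Along chromosome 18, contact of the cluster was followed in blocks of 25 bins (about 5 Mb), using distal pairs. Its highest contact in Grow was with the block centred at -11.2 Mb (chr18:47598690-52602168), in which 8% of kept bins were A, at 0.917 in Grow, 0.930 in Grow-shA1, 0.475 in OIS and 0.511 in OIS-shA1. This block also had the largest negative difference between OIS and Grow, -0.442, with all 5 cluster bins lower. The next differences were -0.427 at 13.8 Mb (scores 0.577 in Grow, 0.542 in Grow-shA1, 0.150 in OIS and 0.136 in OIS-shA1) and -0.355 at -31.2 Mb (scores 0.513 in Grow, 0.389 in Grow-shA1, 0.159 in OIS and 0.0937 in OIS-shA1). At -31.2 Mb the average mixed directions, with a difference between OIS and Grow of -0.520 for bins 1 to 4 and 0.288 for bin 5. Blocks were ranked on that same difference, and their share of A bins comes from the Grow map that enters it, so these values are a description.

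The largest positive difference, 0.362, was with the neighbouring block at -6.20 Mb (chr18:52602169-57600218), where 88.0% of bins were A, and the scores were -0.0454 in Grow, -0.0456 in Grow-shA1, 0.316 in OIS and 0.265 in OIS-shA1. None of the 5 cluster bins was lower there in OIS. The block with the next difference, 0.203 at -42.5 Mb on the other side of the centromere, had 87.0% A bins, and the third of the 3 that were higher in OIS, at -36.2 Mb, differed by 0.0404. Both of these averages mixed directions. At -42.5 Mb, bins 1 to 4 differed by 0.332 and the SERPINB8 bin by -0.286. At -36.2 Mb, bins 1 to 4 differed by -0.0640 and the SERPINB8 bin by 0.454, and 3 of the 5 cluster bins were lower in OIS. In all, 12 of 15 blocks with at least 20 pairs were lower in OIS than in Grow and 12 of 15 were lower in OIS-shA1 than in Grow-shA1. Across the 15 blocks, which share the cluster bins and the libraries, blocks with more A bins had higher differences, with Pearson r of 0.814 without shA1 and 0.820 with it. The block of the largest negative difference held 20 protein-coding genes and that of the largest positive one 21.

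**Figure D5:**
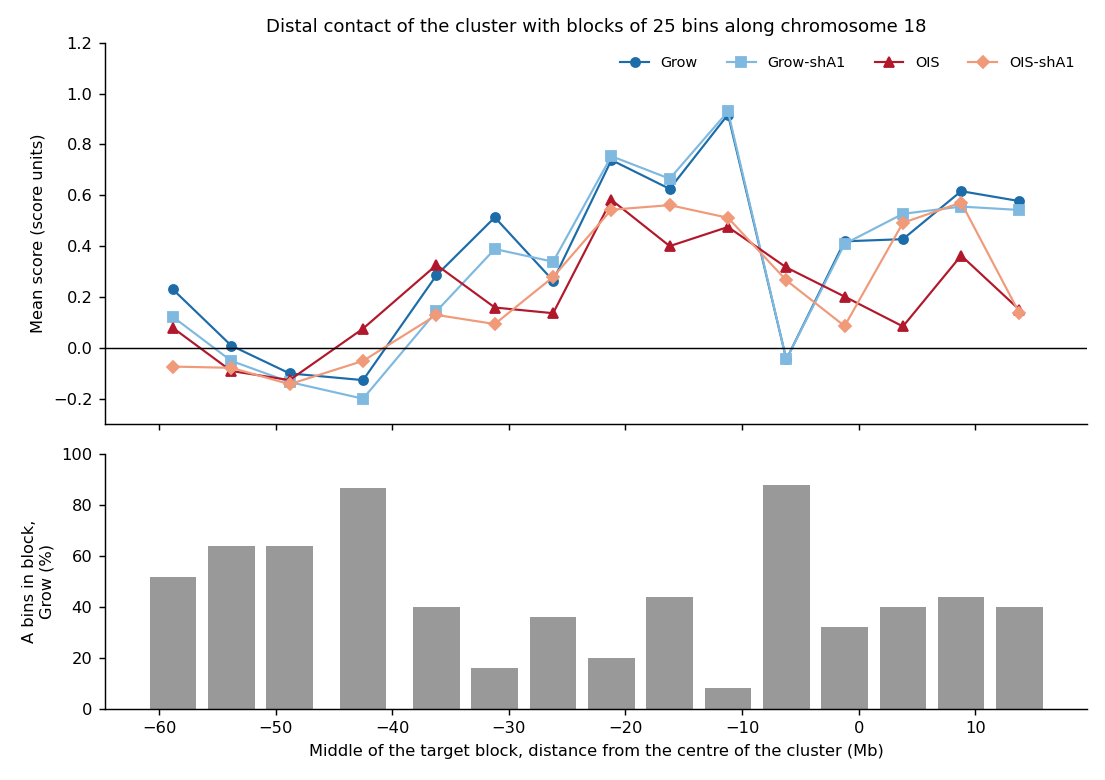
Mean distal score of the cluster with 15 blocks of 25 bins (upper panel, score units, 1 line per map) and the share of A bins of each block in Grow (lower panel, %), by the distance of the block's middle from the cluster in Mb (x axis). The block at -6.20 Mb, with 88.0% A bins, was higher in OIS and OIS-shA1 than in both Grow maps, and the block at -11.2 Mb lower.

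Of the 15 blocks, those just right of the cluster differed most between OIS-shA1 and OIS. The block at 3.80 Mb scored 0.427 in Grow, 0.527 in Grow-shA1, 0.0843 in OIS and 0.492 in OIS-shA1, and the one at 8.79 Mb 0.616 in Grow, 0.556 in Grow-shA1, 0.363 in OIS and 0.571 in OIS-shA1. The nearer block includes the outer bins of the right flank. OIS-shA1 was thus above OIS and near both Grow maps, with interactions of 0.308 and 0.269, the 2 highest of the 15. The last full block, at 13.8 Mb, did not share this and had an interaction of 0.0214. For bins 1 to 4 without the SERPINB8 bin, the block at 3.80 Mb scored 0.178 in Grow, 0.318 in Grow-shA1, -0.267 in OIS and 0.169 in OIS-shA1, and for the SERPINB8 bin alone 1.57 in Grow, 1.48 in Grow-shA1, 1.69 in OIS and 1.97 in OIS-shA1. SERPINB8 thus had far more contact with this block than the other members in every map, and OIS-shA1 was above OIS for both groups of bins. At 8.79 Mb, bins 1 to 4 scored 0.409 in Grow, 0.392 in Grow-shA1, 0.0463 in OIS and 0.266 in OIS-shA1. The SERPINB8 bin scored 1.45 in Grow, 1.21 in Grow-shA1, 1.63 in OIS and 1.79 in OIS-shA1. In both blocks, OIS-shA1 was thus below both Grow maps for bins 1 to 4 and above both for the SERPINB8 bin.

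The distal profile of the SERPINB8 bin was little like that of bin 4 in any map, and like that of bin 3 mainly in both Grow maps. Over 306 target bins distal to all cluster bins, the profile of its bin correlated with that of bin 4 (SERPINB2) at r = 0.158 in Grow and -0.200 in OIS, and with that of bin 3 at 0.822 in Grow and 0.343 in OIS. With shA1 the values for bin 3 were 0.808 in Grow-shA1 and 0.375 in OIS-shA1. Bins 2 and 4 (SERPINB5 and SERPINB2) were alike in every map, at 0.644 in Grow, 0.635 in Grow-shA1, 0.749 in OIS and 0.778 in OIS-shA1. These correlations are across bins of 1 map, which share its library, and carry no test.

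The profile of the cluster as a whole was the mean over its 5 bins, which were not all alike. In Grow, their r with each other ran from 0.137 (bins 1 and 5) to 0.822 (bins 3 and 5), so the mean need not stand for each member. The bins over 5 Mb away whose distal profile in Grow was most like this mean were chr18:51599987-51798921 at MBD2 and POLI (r = 0.766 over 324 bins), chr18:48600043-48797899 at SMAD4 and MEX3C (0.763) and chr18:51798922-51999862 at POLI, STARD6 and C18orf54 (0.747). In OIS their r was 0.519, 0.377 and 0.461, and in OIS-shA1 0.624, 0.479 and 0.552. All 3 were B in every map, with scores of -0.290, -0.514 and -0.522 in Grow. In OIS-shA1 the scores were -0.0154, -0.143 and -0.0308, and the first and last of these lay close to the line between A and B. Ranked in OIS, the most alike were 2 bins at DTNA (0.759 and 0.736) and 1 at CCDC68 (0.733), all A in every map.

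For context, the same values were taken, by the bin of the start of transcription, at other clade B serpins, at genes of plasminogen activation and at a cluster of secreted proteases. The clade B serpins of chromosome 6, SERPINB1, SERPINB6 and SERPINB9, which guard leukocytes against their own granule proteases, share 1 bin that was A in all maps, with scores of 1.12 in Grow, 1.24 in Grow-shA1, 0.660 in OIS and 0.847 in OIS-shA1. Its contact with B bins was -0.785 in Grow, -0.837 in Grow-shA1, -0.832 in OIS and -0.716 in OIS-shA1, a difference of -0.0464 between OIS and Grow that did not reach 0.2. Of 4 plasminogen activation genes in kept bins, in contact with B bins PLAUR, the urokinase receptor, and SERPINE2, another inhibitor of the activators, fell, with differences of -0.343 and -0.229, against 29.1% of all bins. PLAT, the tissue plasminogen activator, rose by 0.216, and PLG, plasminogen itself, differed by -0.172. PLAU, the urokinase activator, lay in a bin that did not pass the filter. All 3 bins of the matrix metalloproteinase cluster of chromosome 11, from MMP7 to MMP13, fell in contact with B bins, by differences from -0.481 to -0.743, and none rose by 0.2 in contact with A bins. The background for these falls is the same 29.1%, and for rises 4.61%. Across the 4 SERPINB bins that hold a member's start, the median was -0.502 with B bins and 0.179 with A bins, beside -0.0942 and -0.0419 over all bins. On chromosome 18 alone, the median over bins that are A in Grow was -0.178 with B bins and 0.129 with A bins. Over bins of chromosome 18 that are B in Grow it was -0.0525 and -0.192. Of the 4 SERPINB bins, bins 2 and 4 were A in Grow. With A bins they differed by 0.141 and 0.218, beside the 0.129 of A bins of the chromosome. Bins 3 and 5 were B in Grow and differed by 0.236 and 0.00254, beside the -0.192 of B bins.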

How the data were processed

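Hi-C of IMR90 cells was read from the maps the authors deposited. Per the study's methods, chromatin was cut with HindIII and ligated in nuclei, reads were aligned to hg19 and filtered with HiC-Pro, counted in bins of about 200 kb, balanced by iterative correction and corrected for distance. Column 3 of each map holds this deposited score. Its log base and prior count are not given in the sources used here, so no fold was computed. Bin starts and ends come from the bin coordinates the authors deposited as a BED list (another deposited measurement, in base pairs).

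Each condition has 1 map. The 4 samples of the series were pooled into the Grow-shA1 and OIS-shA1 maps before deposit, and Grow and OIS belong to no sample. The members, gene lists, thresholds and alternatives were chosen with earlier results of these data known. No column of per-sample values was left unmapped. One listed gene is not reported here.

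A bin was kept where at least 50% of its pairs within the chromosome were listed in each of the 4 maps. Means used pairs with a value in all 4 maps, with distal pairs over 2 Mb apart and local pairs at 2 Mb or less. Compartments were the leading component of each chromosome's correlation matrix, with unlisted pairs at 0, oriented by protein-coding gene number and divided by its SD. A and B partners were those of the Grow map. A difference of 0.2 score units was called, with at least 10 pairs per class of partner. With 1 map per condition there was no test, and no p-value, interval or detection limit could be given. Bins were named by the protein-coding genes they hold, and distal bins by likeness of profile, the 3 with the highest Pearson correlation over 5 Mb away. Gene models and sequence were those of GRCh37, whose chromosome lengths equalled the ends of the bins on 24 of 24 chromosomes and whose HindIII sites met 377 of 377 inner bin edges of chromosome 18.

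Tools were Python 3.11.15, numpy 2.4.6, pandas 2.3.3 and matplotlib 3.10.9. The distal measure was tested on a simulated chromosome of 378 bins with 4 changed cluster bins, and 5 of 5 cluster bins were called rightly. All planted changes were well beyond the call size, and the noise was independent between pairs. The largest error of a difference or interaction was 0.188, close to the call size of 0.2. The simulation checks the code and cannot judge calls near 0.2 in the real maps.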

Additional observations from a re-analysis of the deposited data

How the results depend on the processing

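Alternatives for the summary values of the cluster covered scaling, limiting or centring the scores, other treatment of unlisted pairs, the median over pairs, other distance limits and compartments, and each cluster bin left out in turn. In all, 454 values recomputed for these summaries stayed within the spread of the main value or within 1.5 times its count, none reversed a called result, and 11 others moved further. Leaving out 1 of 5 bins cannot move a mean beyond its SD over bins. The 150 such values, and 30 from only the bins with a member's start, therefore could not have moved. A reversal was counted only for main differences of at least 0.2. Below that, signs could change: distal contact between OIS-shA1 and OIS kept its sign in 10 of 14 alternatives. Over the alternatives, the difference of distal contact with B bins between OIS and Grow ran from -0.514 to -0.348, that with A bins from 0.125 to 0.234, that with the right flank from -1.52 to -0.948 and the compartment score from 0.555 to 0.575. Between OIS-shA1 and Grow-shA1 the first 3 ran from -0.478 to -0.322, 0.191 to 0.298 and -1.14 to -0.694. Contact within the cluster ran from -0.268 to 0.148 between OIS and Grow. The interaction with the right flank ran from 0.217 to 0.422. With the median over pairs, the interaction of distal contact was 0.00702 in place of 0.0451, and with B bins -0.0338 in place of 0.0311. With a call size of 0.1, bins that fell in all distal contact numbered 4 in place of 2 between OIS and Grow and 2 in place of 1 between OIS-shA1 and Grow-shA1, where those that rose with A bins numbered 5 in place of 2. At 0.1, bins called with B partners numbered 2 in place of 1 between OIS-shA1 and OIS, and between Grow-shA1 and Grow 2 in place of 0 with B and 1 in place of 0 with A partners. With scores divided by their SD at the same distance, 2 bins fell in distal contact between OIS-shA1 and Grow-shA1, 0 were called with B partners between OIS-shA1 and OIS, and 1 with A partners between Grow-shA1 and Grow. For single bins, 746 values stayed within the spread over bins and 29 moved further, most of them interactions or values with the median over pairs, and with that median contact with A bins between Grow-shA1 and Grow was -0.201 in bin 5. The cause was not tested for these. No paired analysis was possible because each map pools the numbered samples of its condition, and for the same reason no sample could be left out.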
